A study of Mus musculus with 8 samples.

Results

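The genes of the general transcription machinery and of Mediator were compared between P2X4R-deficient and wild-type mouse livers. They were chosen by symbol, as the genes whose names begin with Taf or Med and a digit or with Gtf1, Gtf2 or Gtf3. Genes beginning with Polr1, Polr2 or Polr3 were also taken, together with Tbp and Tbpl1. This rule gave 110 of the 21899 genes in the table and was set with earlier results of these data known. RNA was measured by polyadenylated RNA sequencing in 8 livers taken 8 h after concanavalin A (ConA), a lectin used to set off T-cell-driven hepatitis in mice. The 4 deficient samples carry the genotype P2X4R knockdown in their labels and P2X4R-/- in the series description, which leaves the kind of allele unsettled. The 4 wild-type samples received the same ConA treatment, and untreated livers were not analysed here, so every value describes a ConA-treated liver. P2X4R, the product of P2rx4, is a cation channel opened by extracellular ATP. Nothing in the labels ties each library to its own animal, and p-values therefore measure only the spread between these samples. Strain, sex and age are not given in the labels.

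RNA polymerase II cannot find a gene's start by itself. TFIID, made of the TATA-binding protein Tbp and its associated factors (TAFs), marks the promoter, TFIIA and TFIIB steady it and bring in the polymerase with TFIIF, and TFIIE recruits TFIIH, which opens the DNA and phosphorylates the polymerase tail. Mediator is a large complex that carries signals from transcription factors bound at enhancers to this assembly. Polymerase I makes ribosomal RNA, polymerase III makes transfer RNA and other short RNAs, and each has initiation factors of its own.

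The libraries held 15445285 to 16604190 counted reads. P2rx4, the check of the labels, was at 17.3, 24.9, 27.0 and 29.6 CPM (reads scaled to a common library total, with a correction for library composition) in deficient libraries 1 to 4. It was at 43.8, 62.4, 59.7 and 57.6 CPM in wild-type libraries 1 to 4. Every deficient library lay below every wild-type library, with a log2 fold change of -1.18 for P2rx4 (SE 0.19, edgeR adjusted p = 0.00481). Hepatocyte markers, among them Alb, the gene of albumin, matched the labelled tissue. Their 7 genes summed to 89110 to 116800 CPM in deficient and 117200 to 136100 CPM in wild-type libraries, with 1 of 7 tested genes lower. Of 7 neutrophil markers, the 6 tested summed to 76.8 to 153.6 CPM against 22.1 to 88.1 CPM, with 2 of 6 higher. Ly6g was not tested and is not in this sum. The 6 Kupffer cell markers summed to 24.5 to 29.9 CPM against 28.7 to 101.2 CPM, with 3 of 6 lower. The 6 endothelial markers summed to 42.9 to 67.9 against 36.0 to 91.4 CPM, with 1 of 6 lower. Of 6 T and NK cell markers only Cd8a and Nkg7 were tested. Their sum was 3.18 to 4.47 against 1.85 to 4.49 CPM, with 0 of 2 passing. The 5 erythroid markers summed to 225.8 to 380.2 against 183.9 to 1440 CPM, with 0 of 5 passing. No sum was at 0 in a library. The part of these cell types in the results that follow was not tested, and in whole liver fewer cells of a type and less RNA per cell cannot be told apart.

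Of the 105 members that passed the filter on low counts, 13 were higher and 4 lower in deficient livers at an edgeR adjusted p under 0.05. These are 12.4% and 3.81% of the tested members, beside 9.27% higher and 10.6% lower among all 11380 genes tested. In either direction 16.2% of the members passed, against 19.9% of all genes. The order of these shares turned in 5 alternatives: it was 26.3% of members against 25.0% of all genes in both limma fits, 16.8% against 13.5% with no expression filter, 24.8% against 22.6% with scaling by library size alone and 18.7% against 17.8% in DESeq2. The genes that rose were Taf1, Taf10 and Taf12 of TFIID, Gtf2a1, Gtf2e1 and Gtf2f1 of the other polymerase II factors, Polr1c and Polr2h of the polymerases, Med8, Med20 and Med22 of Mediator, Taf6l, and an RNA antisense to a polymerase I gene, Polr1has. Those that fell were Taf4b, Polr1b, Med15 and Gtf2i.

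Small differences leaned upward across the members. The median log2 fold change was 0.22 over the 105 members and -0.00 over all genes tested, and 75 members (71.4%) had a value above 0, against 49.9% of all genes. Summed over the 105 tested members, the level was 1496 to 1580 CPM in deficient and 1377 to 1441 CPM in wild-type libraries, with no overlap. With scaling by library size alone, the median of all genes moved to 0.14 and that of the members to 0.36, which leaves the gap between them at 0.22. In 18 members every deficient library was above every wild-type library, and in 4 every deficient library was below. These counts compare with 12.7% and 12.3% of all genes tested. The calls moved with the libraries used: without wild type 3, 6 members were higher and 0 lower (8.45% of all genes passed then), without deficient 3 or wild type 2 the higher count was 8, and without deficient 1 or deficient 3 the lower count was 2.

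**Figure D1:**
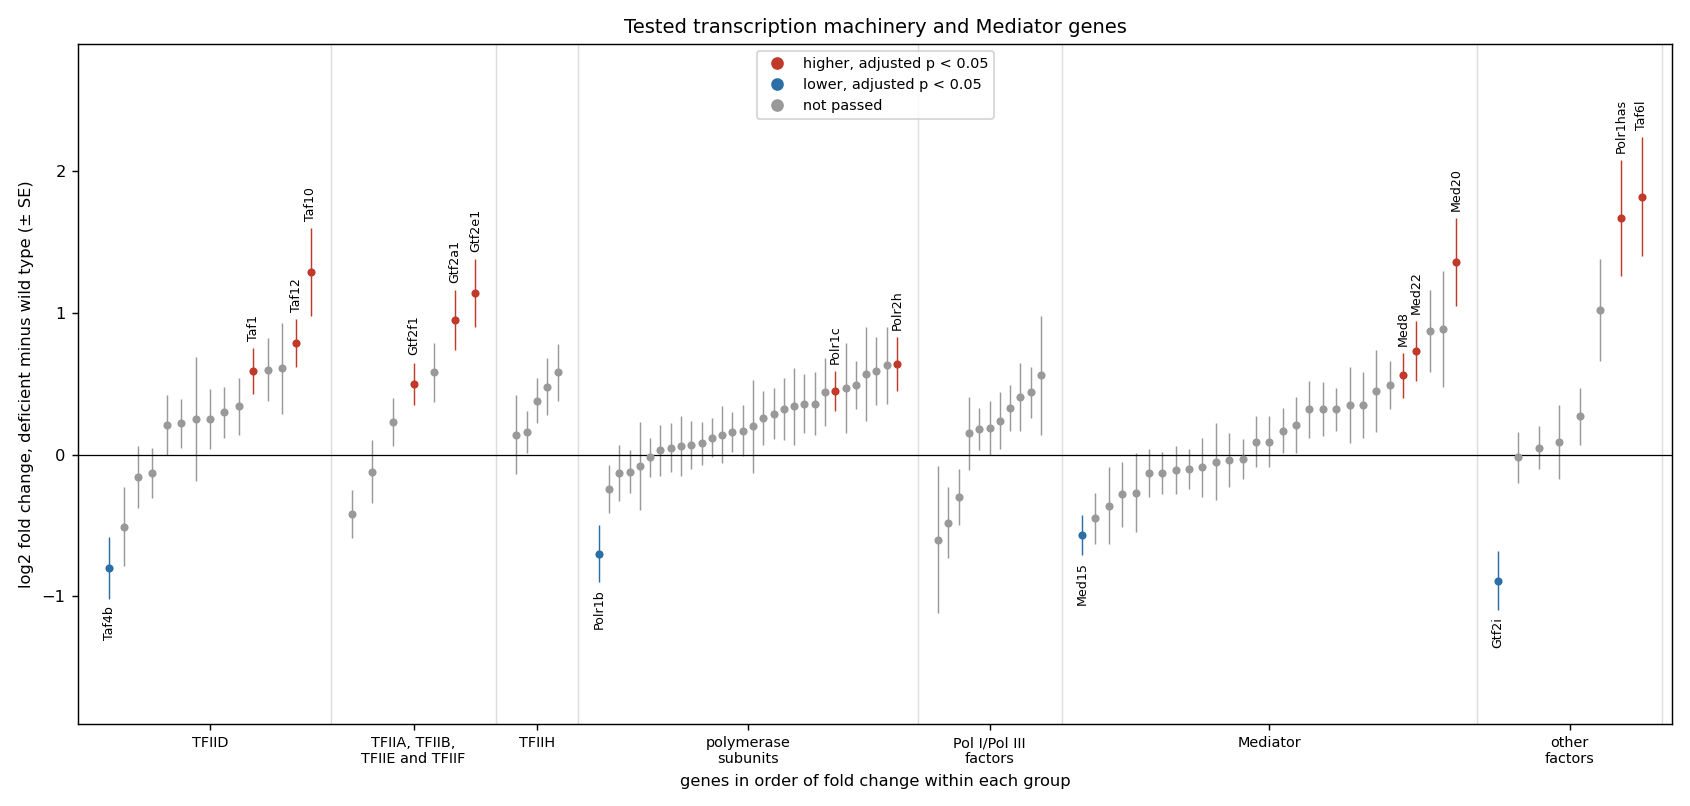
Log2 fold change of each of the 105 tested members, deficient minus wild type, with its standard error, in order within each group; red marks genes higher and blue genes lower at an edgeR adjusted p under 0.05. Most points lie above 0, and the 17 coloured genes run from -0.89 (Gtf2i) to 1.82 (Taf6l).

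In TFIID, 3 of 15 tested genes rose, 1 fell and 11 did not pass, with a median log2 fold change of 0.25. Taf10, a TAF shared between TFIID and the SAGA coactivator, was at 57.6, 35.8, 37.5 and 43.9 CPM in the deficient libraries and at 32.7, 12.0, 13 and 13.8 CPM in the wild-type libraries. All deficient values were above all wild-type values, although wild type 1 stood far above the other 3. The mean was 43.7 ± 9.87 CPM (SD, n = 4) against 17.8 ± 9.90 CPM (SD, n = 4), a log2 fold change of 1.29 (SE 0.31, edgeR adjusted p = 0.0158). In the table Taf10 (chromosome 7, 105388600 to 105393568, minus strand) overlaps Ilk on the opposite strand over 3533 bp, and Ilk, the gene of integrin-linked kinase, is listed at 0 to 1 reads in every library. Whether reads of Ilk were counted as Taf10 was not tested.

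Taf12, which pairs with Taf4 through a histone-like fold and is also found in SAGA, was at 15.3, 10.2, 13.4 and 13.4 CPM in deficient and 7.34, 7.66, 7.25 and 7.95 CPM in wild-type libraries. The groups did not overlap and the wild-type values were close together. Its log2 fold change was 0.79 (SE 0.17, edgeR adjusted p = 0.0124). Taf1, the largest TAF and the scaffold that holds Tbp, was at 19.0, 20.2, 20.7 and 18.6 CPM against 11.4, 10.8, 14.4 and 15.4 CPM, again without overlap. Its log2 fold change was 0.59 (SE 0.16, edgeR adjusted p = 0.0263). Taf4b, a paralogue of Taf4 best known from the gonads, went the other way, at 4.28, 8.32, 5.26 and 6.95 CPM in deficient and 11.5, 11.5, 10.5 and 9.74 CPM in wild-type libraries. The deficient values were all lower and varied more. Its log2 fold change was -0.80 (SE 0.22, edgeR adjusted p = 0.0267).

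Tbp itself, used by all 3 polymerases, was at 10.1, 9.38, 8.33 and 10.8 CPM in deficient and 9.87, 6.47, 6.46 and 7.76 CPM in wild-type libraries. The groups overlapped, and the log2 fold change of 0.34 (SE 0.20, edgeR adjusted p = 0.248) did not pass. Tbp shares 8094 bp with Pdcd2 on the opposite strand, which is listed at 0 reads in every library. Whether reads of Pdcd2 were counted as Tbp was not tested. Taf4 had a log2 fold change of -0.13 (SE 0.18) and Taf8, the partner of Taf10, one of 0.22 (SE 0.17). Neither of these passed, with edgeR adjusted p-values of 0.642 and 0.375. Per length, Taf10 had the highest TFIID level, at 10.1 ± 2.45 FPKM (SD, n = 4; reads scaled to gene length and library total) in deficient and 3.76 ± 2.25 FPKM (SD, n = 4) in wild-type livers. The other tested TFIID genes ran down to Taf9b, with a mean of 0.318 FPKM over all libraries. Taf7l and Taf7l2 had 0 reads in every library, and Taf9 had 0 to 1 reads. Taf9 shares 4482 bp on the same strand with Ak6, which had 66 to 192 reads, so its near absence from the table is uncertain.

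Taf12 passed with every library left out in turn. Taf10 did not pass without wild type 3 (edgeR adjusted p = 0.0523). Taf1 did not pass without deficient 3 (edgeR adjusted p = 0.0631) or without wild type 1, 2 or 3 (0.0577, 0.0701 and 0.0532), and Taf4b did not pass without deficient 1 or 3 (0.0576 and 0.0704) or wild type 2 or 3 (0.0570 and 0.0640).

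Among TFIIA, TFIIB, TFIIE and TFIIF, 3 of 7 tested genes rose, 0 fell and 4 did not pass. The genes that rose encode the large subunit of TFIIA, of TFIIE and of TFIIF. Gtf2e1, the large TFIIE subunit, was at 9.78, 13.1, 13.5 and 11.6 CPM in deficient and 3.67, 5.91, 4.62 and 7.63 CPM in wild-type libraries. Every deficient value was higher, with a log2 fold change of 1.14 (SE 0.24, edgeR adjusted p = 0.0103), 2.2 times the wild-type level. Gtf2a1, whose product is cut into the alpha and beta chains of TFIIA, was at 16.7, 14.3, 12.3 and 16.7 CPM against 6.45, 10.3, 6.07 and 8.27 CPM. Its groups did not overlap either, and the log2 fold change was 0.95 (SE 0.21, edgeR adjusted p = 0.0118). Gtf2f1, the large TFIIF subunit that rides with the polymerase, was at 44.9, 39.3, 45.3 and 41.5 CPM against 24.4, 33.0, 29.5 and 34.5 CPM. It rose by a smaller 0.50 (SE 0.15, edgeR adjusted p = 0.0369), with no overlap.

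The small subunits did not pass in edgeR. Gtf2e2 was at 11.7, 13.4, 7.92 and 13.1 CPM in deficient and 6.90, 7.59, 6.73 and 9.68 CPM in wild-type libraries, overlapping in deficient 3, with a log2 fold change of 0.58 (SE 0.21, edgeR adjusted p = 0.0744). It passed in limma (adjusted p = 0.0268 on log2(FPKM + 1)), and in edgeR with scaling by library size alone (adjusted p = 0.0316), without deficient 3 (0.0407) and with the GC trend removed (0.0373). Gtf2f2 gave 0.23 (SE 0.17, edgeR adjusted p = 0.370) and Gtf2a2 gave -0.12 (SE 0.22, edgeR adjusted p = 0.732). Gtf2b, the single-subunit factor TFIIB, was at 49.6, 45.4, 30.8 and 44 CPM against 47.8, 58.3, 60.3 and 60.7 CPM. Only wild type 1 lay within the deficient range, and the log2 fold change of -0.42 (SE 0.17) did not pass (edgeR adjusted p = 0.102). Gtf2a1l, a germ-cell relative of Gtf2a1, had 0 reads. Gtf2e1 and Gtf2a1 passed with every library left out in turn, whereas Gtf2f1 passed only without deficient 2 or wild type 4. For Gtf2f1 the edgeR adjusted p was 0.0725, 0.0821 and 0.0671 without deficient 1, 3 and 4 and 0.0825, 0.0570 and 0.101 without wild type 1, 2 and 3, and it was 0.0554 and 0.0515 after removal of a trend with GC content or with gene length.

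**Figure D2:**
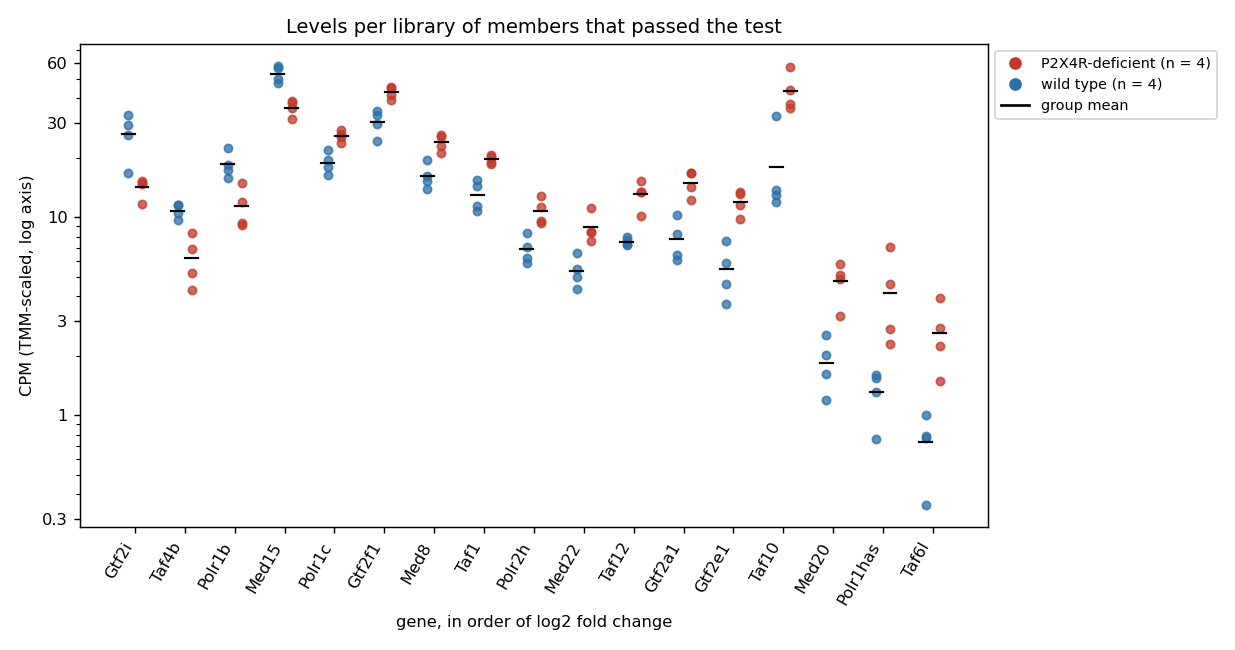
CPM on a log axis in each of the 8 libraries for the members that passed, in order of log2 fold change, with 1 point per library (red deficient, blue wild type) and the group mean as a line. In all 17 genes the 4 deficient points lie on 1 side of the 4 wild-type points, above them in 13 and below them in 4.

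Sequences just upstream of the start are shown beside each other for genes that moved. The genes are the 3 initiation factor genes that passed in every alternative fit, and Gtf2i, the member with the largest fall. Each sequence is the 250 bases before the start in RefSeq (GRCm38.p6, a build whose coordinates differ from those in the table), with capitals at the matches named. They are Gtf2e1 at chr16:37539790-37540039 on the minus strand with CCAAT, Taf12 at chr4:132274125-132274374 on the plus strand with CCGGAAG and CACGTG, Gtf2a1 at chr12:91590488-91590737 on the minus strand with the same 2 motifs, and Gtf2i at chr5:134314761-134315010 on the minus strand with GGGCGG.
Gtf2e1: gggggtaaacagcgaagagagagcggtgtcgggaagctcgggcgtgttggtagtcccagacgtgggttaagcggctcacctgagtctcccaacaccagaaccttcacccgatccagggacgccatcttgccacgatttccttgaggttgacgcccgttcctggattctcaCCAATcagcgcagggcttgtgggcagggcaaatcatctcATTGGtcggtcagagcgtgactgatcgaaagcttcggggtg
Taf12: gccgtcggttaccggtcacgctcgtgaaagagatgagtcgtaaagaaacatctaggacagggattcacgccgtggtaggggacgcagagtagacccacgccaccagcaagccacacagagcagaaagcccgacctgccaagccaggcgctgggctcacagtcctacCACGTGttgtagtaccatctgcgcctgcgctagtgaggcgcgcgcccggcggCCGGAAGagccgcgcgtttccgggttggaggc
Gtf2a1: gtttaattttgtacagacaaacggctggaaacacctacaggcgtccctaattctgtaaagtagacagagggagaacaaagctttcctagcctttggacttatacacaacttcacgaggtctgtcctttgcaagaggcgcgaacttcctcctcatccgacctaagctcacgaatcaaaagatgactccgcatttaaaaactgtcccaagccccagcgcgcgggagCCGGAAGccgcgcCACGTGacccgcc
Gtf2i: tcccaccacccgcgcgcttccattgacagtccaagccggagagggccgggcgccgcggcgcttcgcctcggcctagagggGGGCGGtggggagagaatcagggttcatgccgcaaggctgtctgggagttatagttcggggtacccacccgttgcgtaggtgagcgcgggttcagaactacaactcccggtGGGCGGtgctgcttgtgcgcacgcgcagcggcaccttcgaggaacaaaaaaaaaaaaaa

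For Gtf2a1, with 2 starts listed, the one furthest upstream is shown. Gtf2e1 holds CCAAT on each strand, and Gtf2i holds GGGCGG in 2 places. Promoter rows were found for 93 of the 110 members, 109 rows in all, and motifs were searched on both strands. CCGGAAG, the core bound by ETS factors, was in 24.8% of the member rows and 6.91% of all 32851 promoter rows of any gene type, and the GC box GGGCGG was in 56.9% and 32.7%. The E-box CACGTG was in 14.7% and 6.02%, and CCAAT in 31.2% and 33.8%. TATAAA was in 11.9% and 12.4%, and TGANTCA, the AP-1 core, in 2.75% and 6.75%. CCGGAAG was in 4 of 13 rows of genes that rose and 1 of 4 rows of genes that fell. A match describes the letters of this window, not a bound site.

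All 5 TFIIH genes within the naming rule, those with Gtf2h names, had a log2 fold change above 0. Their median was 0.38, and 0 passed in edgeR. At an unadjusted p under 0.05 there were 3, limma on log2 FPKM called 3 and DESeq2 called 1. Over all 105 tested members, 25 higher and 6 lower were at that unadjusted p. Its share among all genes was not counted, so such counts, here and below, are not evidence of a change. Of all genes, limma called 25.0% and DESeq2 17.8%. Gtf2h3, a core subunit, was at 12.6, 8.39, 12.2 and 11 CPM in deficient and 8.86, 6.05, 7.78 and 6.73 CPM in wild-type libraries. Its groups overlapped only between deficient 2 and wild type 1, and the log2 fold change was 0.58 (SE 0.20, edgeR adjusted p = 0.0571; DESeq2 adjusted p = 0.0447). Gtf2h5, the smallest subunit, was at 18.3, 17.8, 20.2 and 19.5 CPM against 16.6, 16.2, 12.1 and 13.5 CPM, without overlap, and gave 0.38 (SE 0.16, edgeR adjusted p = 0.108). Gtf2h2 gave 0.14 (SE 0.28) and Gtf2h1, the most abundant per length at 9.69 ± 1.18 FPKM (SD, n = 4) in deficient livers and 7.85 ± 0.458 FPKM (SD, n = 4) in wild-type livers, gave 0.16 (SE 0.15). Summed, the 5 genes were at 64.5 to 71.6 CPM in deficient and 54.0 to 57.2 CPM in wild-type libraries, which did not overlap.

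Of the 30 polymerase subunit genes, 2 rose, 1 fell and 27 did not pass, with a median log2 fold change of 0.18. Polymerase II as such held no gene that passed in edgeR or DESeq2 among 8 tested, though all 8 had a value above 0 and 2 reached an unadjusted p under 0.05 (limma called 2). Polr2a, the catalytic subunit with the tail that TFIIH phosphorylates, was at 34.4, 45.7, 55.1 and 44.3 CPM in deficient and 30.6, 27.8, 34.8 and 34.6 CPM in wild-type libraries. Deficient 1 lay within the wild-type range and the other 3 above it, with a log2 fold change of 0.49 (SE 0.17, edgeR adjusted p = 0.0576). It passed in limma (adjusted p = 0.0267 on log2(FPKM + 1)) and without deficient 1 (edgeR adjusted p = 0.0318). Polr2i, a small subunit linked to the accuracy of transcription, gave 0.59 (SE 0.24, edgeR adjusted p = 0.102), and Polr2b, the other large subunit, gave 0.05 (SE 0.17, edgeR adjusted p = 0.874). The highest polymerase II level per length was that of Polr2m, which encodes a protein bound to part of the enzyme pool, at 22.4 ± 1.32 FPKM (SD, n = 4) in deficient and 18.7 ± 1.85 FPKM (SD, n = 4) in wild-type livers, and it gave 0.12 (SE 0.14).

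Subunits used by several polymerases held both rises. Polr2h, found in all 3 enzymes, was at 11.3, 9.32, 9.54 and 12.8 CPM in deficient and 6.26, 8.37, 5.87 and 7.11 CPM in wild-type libraries. The groups did not overlap, and the log2 fold change was 0.64 (SE 0.19, edgeR adjusted p = 0.0366). Polr2h shares 82 bp with Clcn2 on the opposite strand, which had a log2 fold change of -1.09 (SE 0.30, edgeR adjusted p = 0.0280). Polr1c, a scaffold subunit of polymerases I and III, was at 23.8, 26.3, 25.5 and 27.6 CPM against 16.4, 19.4, 17.9 and 21.9 CPM, also without overlap. It rose by 0.45 (SE 0.14, edgeR adjusted p = 0.0466). Its partner Polr1d gave 0.07 (SE 0.17). Polr2l, the most abundant shared subunit per length at 25.6 ± 7.26 FPKM (SD, n = 4) against 19.3 ± 3.77 FPKM (SD, n = 4), gave 0.26 (SE 0.19), and Polr2k gave -0.08 (SE 0.31). These 3 did not pass (edgeR adjusted p = 0.806, 0.370 and 0.883).

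Polymerase I held the subunit gene that fell. Polr1b, the second-largest subunit of that enzyme, was at 9.41, 15.0, 12.0 and 9.19 CPM in deficient and 15.9, 17.4, 22.4 and 18.4 CPM in wild-type libraries. All deficient values were lower, deficient 2 only just, and the log2 fold change was -0.70 (SE 0.20, edgeR adjusted p = 0.0285). Polr1a, the largest subunit, gave -0.12 (SE 0.15) and Polr1f gave -0.24 (SE 0.17), while Polr1h gave 0.36 (SE 0.22). None of these 3 passed (edgeR adjusted p = 0.614, 0.336 and 0.273). Summed, the 5 genes specific to polymerase I were at 52.0 to 57.1 CPM in deficient and 58.9 to 64.4 CPM in wild-type libraries. The 10 polymerase III genes summed to 96.1 to 103.3 CPM in deficient and 84.7 to 93.8 CPM in wild-type libraries, and the 8 polymerase II genes to 170.3 to 193.6 CPM and 150.9 to 168.6 CPM. None of these sums overlapped between groups, and polymerase I was the only one of the 3 with lower deficient sums. Without Polr1b the other 4 polymerase I genes summed to 42.1 to 44.5 CPM in deficient and 39.9 to 46.0 CPM in wild-type libraries, which overlapped. The difference between the enzymes was not tested. Of the 10 polymerase III genes within the naming rule, 0 passed in edgeR, limma or DESeq2. Of these, 1 reached an unadjusted p under 0.05, Polr3k at 0.63 (SE 0.27, edgeR adjusted p = 0.113). Crcp, a polymerase III subunit outside the rule, gave 0.58 with overlapping groups (SE 0.19, edgeR adjusted p = 0.0519). It did not pass in edgeR with all libraries and was called higher in limma and DESeq2.

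The polymerase calls moved with the libraries used. Polr2h passed only without deficient 2 or wild type 2, with an edgeR adjusted p of 0.0735, 0.0537 and 0.102 without deficient 1, 3 and 4 and 0.0755, 0.109 and 0.0646 without wild type 1, 3 and 4. Polr1c passed only without wild type 4, with 0.0593, 0.0781, 0.0837 and 0.113 without deficient 1 to 4 and 0.102, 0.0821 and 0.126 without wild type 1, 2 and 3, and it gave 0.0618 with no expression filter, 0.0604 with the GC trend removed and 0.0524 with the length trend removed. Polr1b passed only without deficient 2 or wild type 1 or 2, with 0.0689, 0.0577 and 0.0664 without deficient 1, 3 and 4 and 0.0918 and 0.0605 without wild type 3 and 4, and it gave 0.0509 with scaling by library size alone.

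Of the 11 factors that serve polymerases I and III, 0 passed in edgeR or DESeq2, 1 reached an unadjusted p under 0.05 and limma called 1. The 6 genes of TFIIIC, which binds inside transfer RNA genes, all had values above 0, from 0.18 for Gtf3c6 to 0.44 for Gtf3c4. Gtf3c4 was at 15.5, 18.9, 17.2 and 15.8 CPM in deficient and 9.68, 13.9, 11.3 and 15.0 CPM in wild-type libraries. The groups did not overlap, and the test missed the threshold (SE 0.18, edgeR adjusted p = 0.0981; limma adjusted p = 0.0308). In sum TFIIIC was at 90.2 to 100.9 CPM against 68.6 to 87.4 CPM. The 4 TAFs of SL1, the polymerase I selectivity factor, ran from -0.48 (Taf1d, SE 0.25) to 0.56 (Taf1c, SE 0.42), with overlapping sums of 15.3 to 23.1 and 20.2 to 25.1 CPM. Gtf3a, the 5S ribosomal RNA factor TFIIIA, was near the filter on low counts and gave -0.60 (SE 0.52, edgeR adjusted p = 0.441).

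In Mediator 3 of 29 tested genes rose, 1 fell and 25 did not pass, with a median log2 fold change of 0.09 and summed levels of 395.5 to 416.4 CPM in deficient and 394.7 to 419.9 CPM in wild-type libraries. The 3 that rose are head subunits, the module that contacts polymerase II, where 3 of 7 genes passed and the median was 0.56. Med20 was at 5.85, 3.17, 4.86 and 5.11 CPM in deficient and 2.02, 1.62, 1.19 and 2.56 CPM in wild-type libraries. The groups did not overlap, and the log2 fold change was 1.36 (SE 0.31, edgeR adjusted p = 0.0140). Over 12830 bp Med20 coincides with Gm20517, listed at 0 to 1 reads, so the division of reads between them is uncertain. Med18, which forms a pair with Med20 in the head, was at 1.03, 1.93, 1.33 and 1.67 CPM against 0.443, 1.27, 0.659 and 0.833 CPM. It overlapped in part, gave 0.89 (SE 0.41, edgeR adjusted p = 0.142) and lay near the filter on low counts.

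Med22 was at 11.1, 7.58, 8.45 and 8.45 CPM in deficient and 5.0, 4.36, 6.59 and 5.51 CPM in wild-type libraries, a log2 fold change of 0.73 (SE 0.21, edgeR adjusted p = 0.0295). Med8 was at 26.2, 22.9, 25.5 and 21.1 CPM against 13.9, 15.3, 16.1 and 19.5 CPM, a log2 fold change of 0.56 (SE 0.16, edgeR adjusted p = 0.0280). Neither gene's groups overlapped. The head was not uniform: Med17, its central subunit, was at 14.8, 19.5, 14.5 and 22.3 CPM against 24.8, 19.2, 27.0 and 26.1 CPM, overlapping, with a log2 fold change of -0.45 (SE 0.18, edgeR adjusted p = 0.102). Med6 gave 0.09 (SE 0.18) at 7.71 ± 0.969 FPKM (SD, n = 4) in deficient and 6.56 ± 0.540 FPKM (SD, n = 4) in wild-type livers.

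Med15, the tail subunit that binds many activators, was the Mediator gene that fell. It was at 31.4, 37.8, 38.5 and 35.8 CPM in deficient and 57.0, 47.9, 58.2 and 49.9 CPM in wild-type libraries. The groups were well apart, with 67.4% of the wild-type level left and a log2 fold change of -0.57 (SE 0.14, edgeR adjusted p = 0.0188). The other 4 tail genes ran from -0.03 (Med25) to 0.21 (Med23) and did not pass. The single scaffold gene, Med14, gave -0.09 (SE 0.21).

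In the middle module 0 of 9 genes passed in edgeR or DESeq2, with 1 at an unadjusted p under 0.05 and 2 in limma. Med9 was at 11, 11.6, 14.2 and 10.5 CPM in deficient and 7.72, 8.58, 8.24 and 9.04 CPM in wild-type libraries. These groups did not overlap, and the log2 fold change was 0.49 (SE 0.17, edgeR adjusted p = 0.0594; limma adjusted p = 0.0155). Med21 had the lowest value in this module, -0.28 (SE 0.23). Among the 4 genes between head and tail, Med30 gave the highest value. It was at 8.51, 5.84, 6.07 and 4.54 CPM against 5.0, 3.45, 2.84 and 2.37 CPM, with only deficient 4 below the highest wild-type library, and gave 0.87 (SE 0.29, edgeR adjusted p = 0.0509; DESeq2 adjusted p = 0.0266). The 3 tested Med genes of the kinase module, which can hold Mediator off the polymerase, were all below 0. None of these 3 reached an unadjusted p under 0.05 or passed in edgeR, limma or DESeq2. The module's subunits outside the naming rule gave -0.09 (Cdk8, SE 0.15), 0.70 (Cdk19, SE 0.38) and 0.52 (Ccnc, SE 0.22). They did not pass in edgeR (adjusted p = 0.729, 0.218 and 0.123) or DESeq2, and limma called 1 of them. Med12 was at 8.33, 10.9, 16.3 and 8.39 CPM against 18.2, 8.16, 12.3 and 14.3 CPM, with wide overlap, and gave -0.27 (SE 0.28), Med13 gave -0.11 (SE 0.17) and Med13l gave -0.36 (SE 0.27). Med12l had 1 to 22 reads a library and was not tested.

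Med20 passed with every library left out in turn. Med15 did not pass without wild type 3 (edgeR adjusted p = 0.0634), in limma (0.0591 on log2(FPKM + 1)) or with scaling by library size alone (0.0502). Med8 did not pass without deficient 1 or 3 (edgeR adjusted p = 0.0637 and 0.0675) or wild type 1, 2 or 3 (0.0628, 0.0681 and 0.0750), and Med22 did not pass without deficient 1, 3 or 4 (0.0786, 0.0558 and 0.0541) or wild type 1, 2 or 4 (0.0610, 0.0746 and 0.0596).

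Of the 8 members that lie beside the basal machinery, Taf6l and the antisense RNA Polr1has rose, Gtf2i fell and 5 did not pass in edgeR. Gtf2i encodes TFII-I, a factor that binds promoters and carries signals from the cell surface. It was at 11.7, 14.8, 14.9 and 15.3 CPM in deficient and 26.1, 16.7, 33.0 and 29.2 CPM in wild-type libraries. All deficient values were lower, with wild type 2 close to them, and the log2 fold change was -0.89 (SE 0.21, edgeR adjusted p = 0.0145). Without wild type 3 it was -0.76 (edgeR adjusted p = 0.0501). Its relative Gtf2ird1 was at 6.15, 11.3, 17.6 and 7.35 CPM in deficient and 2.91, 6.26, 4.42 and 7.37 CPM in wild-type libraries, overlapping and scattered, with a log2 fold change of 1.02 (SE 0.36, edgeR adjusted p = 0.0632; DESeq2 adjusted p = 0.0344). Gtf2ird2 gave 0.09 (SE 0.26).

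Taf6l, a TAF-like subunit of SAGA, had the largest fold change of all members and one of the lowest levels. It was at 2.23, 1.49, 3.93 and 2.76 CPM in deficient and 1.01, 0.352, 0.791 and 0.769 CPM in wild-type libraries. The groups did not overlap, and the log2 fold change was 1.82 (SE 0.42, edgeR adjusted p = 0.0142). Since its wild-type libraries were near the filter on low counts, it entered the test partly through its deficient libraries. Taf5l, its partner in SAGA, was at 12.7 to 17.4 CPM in deficient and 11.7 to 18.4 CPM in wild-type libraries and gave -0.02 (SE 0.18, edgeR adjusted p = 0.963). Tbpl1, the Tbp-like factor best known from spermatogenesis, was at 12.0, 8.57, 8.16 and 10.6 CPM against 7.28, 9.63, 6.79 and 8.84 CPM, overlapping, and gave 0.27 (SE 0.20, edgeR adjusted p = 0.356). Taf15, which encodes an RNA-binding protein, was abundant at 19.8 ± 2.38 FPKM (SD, n = 4) in deficient and 17.3 ± 1.71 FPKM (SD, n = 4) in wild-type livers and gave 0.05 (SE 0.15).

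Polr1has, an RNA transcribed antisense to Polr1h, met the naming rule without coding for a subunit. It was at 7.06, 2.30, 2.72 and 4.60 CPM in deficient and 0.759, 1.55, 1.32 and 1.6 CPM in wild-type libraries. Its groups did not overlap, deficient 1 was the highest, and the log2 fold change was 1.67 (SE 0.41, edgeR adjusted p = 0.0176). The listed coordinates of Polr1has do not overlap those of Polr1h. The use of strand in counting is not given in the sources used here. Whether reads of Polr1h were counted as Polr1has was not tested. Without it, 12 of 104 tested members rose and 4 fell. It did not pass without wild type 3 (edgeR adjusted p = 0.050) or without deficient 1 and wild type 1 together (log2 fold change 1.09, 0.0729).

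Partner genes of a complex were set side by side as RNA ratios, which restate the fold changes of genes already named. Ratios of FPKM compare genes per length within a library and do not depend on library scaling. The Gtf2a1 to Gtf2a2 ratio was 0.219, 0.281, 0.320 and 0.298 in deficient and 0.0925, 0.141, 0.121 and 0.173 in wild-type libraries. The ratio of Gtf2e1 to Gtf2e2 was 0.312, 0.367, 0.635 and 0.331 against 0.199, 0.291, 0.256 and 0.294. Neither ratio overlapped between the groups.

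For Taf12 to Taf4 the means were 1.73 ± 0.369 (SD, n = 4) and 0.905 ± 0.0644 (SD, n = 4), and for Taf10 to Taf8 they were 3.24 ± 0.467 (SD, n = 4) and 1.53 ± 0.706 (SD, n = 4), with no overlap in either. Polr2a to Polr2b was 1.03, 1.2, 1.19 and 1.21 in deficient and 0.981, 0.872, 0.753 and 0.866 in wild-type libraries, so the catalytic subunit was higher against its large partner in each deficient library. The ratios of Gtf2f1 to Gtf2f2, Taf4b to Taf4 and Polr1b to Polr1a overlapped, the last with means of 1.58 ± 0.368 (SD, n = 4) and 2.36 ± 0.391 (SD, n = 4). Polr3g to Polr3gl, alternative subunits of polymerase III, spread widely at 0.205 to 0.823 in deficient and 0.231 to 0.526 in wild-type libraries. The pairs were chosen with the fold changes known, and no test was made of them.

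**Figure D3:**
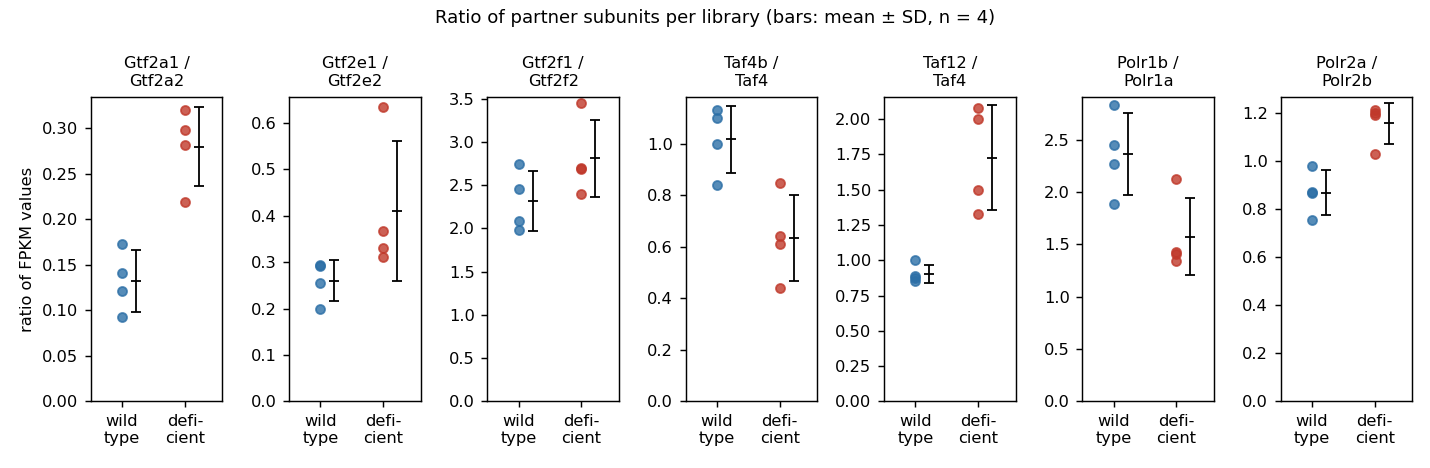
Ratio of FPKM between 2 subunits of a complex for 7 pairs, with 1 point per library (blue wild type, red deficient) and the mean ± SD of each group of 4 beside the points. The Gtf2a1 to Gtf2a2, Gtf2e1 to Gtf2e2, Taf12 to Taf4 and Polr2a to Polr2b ratios do not overlap between the groups, and the other 3 do.

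Genes of the same pathways that carry other names were read from the same fit. Of 51 listed, 50 were tested, 7 rose and 2 fell, with a median log2 fold change of 0.13. These are 14% and 4.0%, beside 9.27% higher and 10.6% lower among all genes tested. In either direction 18.0% passed, against 19.9% of all genes. Among the 6 polymerase assembly factors, which fold and import the enzymes, 3 rose and all 6 were above 0. They were Gpn2 at 0.88 (SE 0.22, edgeR adjusted p = 0.0180), Rpap3 at 0.78 (SE 0.24, edgeR adjusted p = 0.0378) and Gpn3 at 0.57 (SE 0.17, edgeR adjusted p = 0.0366). Of the 5 TFIIH subunits with other names, Ercc3, the translocase that opens the DNA, rose by 0.59 (SE 0.17, edgeR adjusted p = 0.0310). The other 4 did not pass, with 0.29 for Ercc2, 0.11 for the kinase Cdk7, 0.10 for Ccnh and -0.11 for Mnat1. The median of these 5 subunits was 0.11.

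Ttf1, a terminator of ribosomal RNA synthesis, rose by 1.06 (SE 0.25, edgeR adjusted p = 0.0149). Maf1, a repressor of polymerase III, rose by 0.63 (SE 0.19, edgeR adjusted p = 0.0394), and Tfb1m, a mitochondrial ribosomal RNA methyltransferase, rose by 1.01 (SE 0.32, edgeR adjusted p = 0.0430) with overlapping groups. The 2 falls were among 15 elongation genes. Tcea3, a TFIIS elongation factor, was at 7.0, 11.1, 5.32 and 10.1 CPM in deficient and 22.7, 18.1, 18.7 and 14.7 CPM in wild-type libraries, with no overlap. Its log2 fold change was -1.15 (SE 0.24, edgeR adjusted p = 0.0103). Ell, which speeds elongation, fell by 0.53 (SE 0.17, edgeR adjusted p = 0.0431). The kinase partners of Mediator (Cdk8, Cdk19 and Ccnc), TFIIIB, the small nuclear RNA activating complex and the Tbp regulators held no gene that passed in edgeR or DESeq2 among 14 tested, with 2 at an unadjusted p under 0.05 and 2 in limma. Tcea3 and Ttf1 passed with every library left out in turn. Gpn2 did not pass without deficient 3 (edgeR adjusted p = 0.0515) or wild type 3 (0.0559), and Ercc3, Maf1, Rpap3, Gpn3, Tfb1m and Ell each lost the call in 5 to 7 of the 8 such fits.

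On chromosome 5, which carries P2rx4, there are 12 members. Gtf2h3 lies 1.85 Mb from P2rx4 and Med13l 3.94 Mb, and neither passed in edgeR with all libraries. Gtf2h3, the nearest, passed in DESeq2 (adjusted p = 0.0447) and limma (0.0342 on log2(FPKM + 1)), and in edgeR with scaling by library size alone (0.0316), without deficient 2 (0.0317) or wild type 1 (0.0492) and with the length trend removed (0.0486). Gtf2i lies 11.4 Mb away, between Gtf2ird2 at 11.3 Mb and Gtf2ird1 at 11.5 Mb, 3 neighbours with log2 fold changes of -0.89, 0.09 and 1.02. The other 7 ran from -0.60 (Gtf3a) to 0.61 (Taf6). The genetic background around the modified locus is not given in the labels, and its part in these values was not tested.

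Of the 17 calls, those of Gtf2a1, Gtf2e1, Taf12, Med20 and Taf6l held in every alternative fit that covered the gene. Med20 and Taf6l were too low for the FPKM filter of the limma fits. Taf6l also lay near the filter on low counts and entered the test partly through its deficient libraries.

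**Figure D4:**
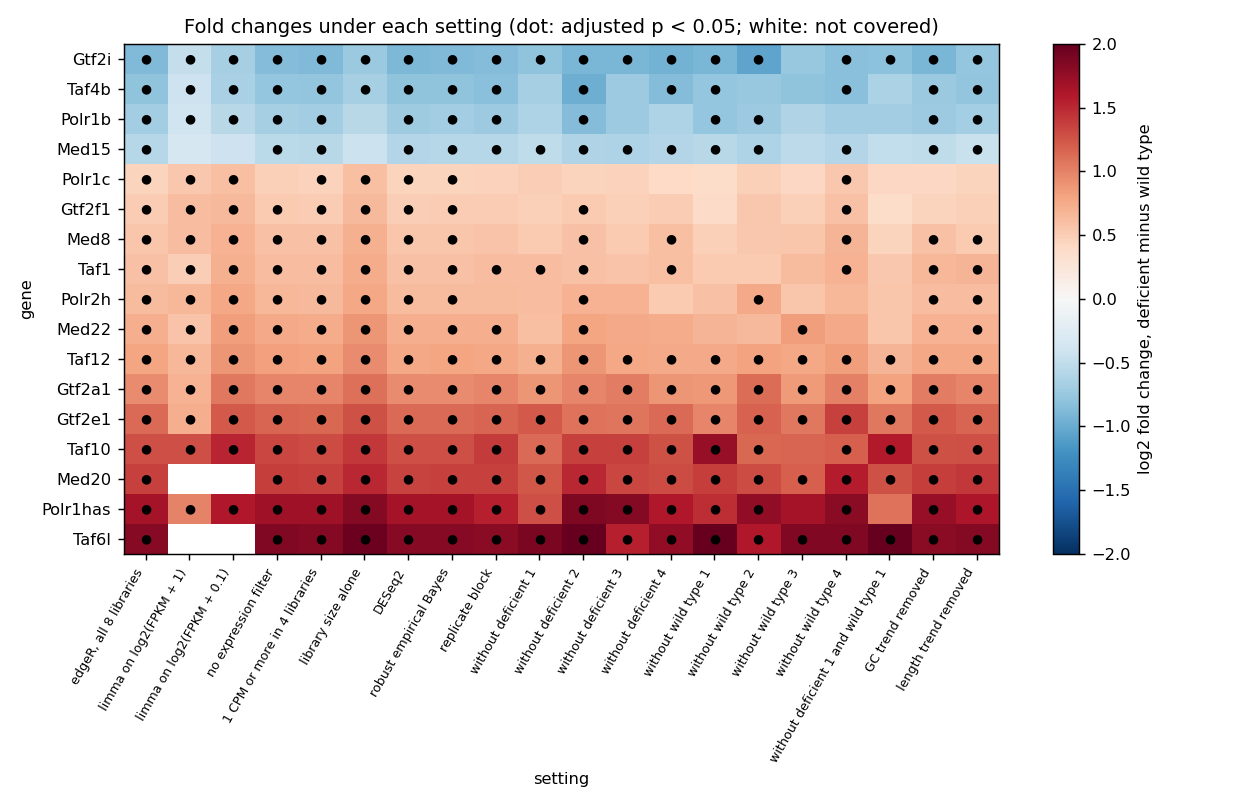
Log2 fold change, as colour, of each member that passed (rows) in the edgeR fit of all 8 libraries and in 19 alternative fits (columns), with a dot where the adjusted p was under 0.05 and white where the gene was not covered. Gtf2a1, Gtf2e1 and Taf12 have a dot in all 19 alternatives, and Polr1c in 7.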

How the data were processed

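Liver RNA of 8 samples was extracted with Trizol, poly(A) RNA was purified and sequencing was done on a NovaSeq instrument, per the labels' protocols. The deposited values are read counts and FPKM for every gene in each library, per the file headers. FPKM recomputed from counts and gene lengths differed from the deposited values by at most 6.96e-05%. The tools cutadapt, a trimmer, and HISAT2 2.0.5, an aligner, are named in the submitters' processing notes. How reads were assigned to genes and strands, and with which annotation and build, is not given in the sources used here, so coordinates are printed as the table lists them. Counts of genes that overlap another listed gene, as 31 members do, are uncertain.

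Groups were taken from the genotype in the labels. edgeR 4.0.16 (R 4.3.3) was fitted to the counts of all 8 libraries with TMM scaling, its default expression filter and no covariate. It tested 11380 genes and removed 10519, 5 members among them. P-values come from its quasi-likelihood test, adjusted by Benjamini-Hochberg over all genes tested, with a threshold of 0.05. The standard error is the log2 fold change divided by the square root of F. Bracketed p-values that follow a named edgeR p in a sentence are from the same test. The members and all lists were chosen with earlier results of these data known. Named genes are P2rx4, each member that passed, in each class the highest and lowest fold change and the highest FPKM, Tbp, Tbpl1, Polr2a, Med14, Med12, the members removed by the filter and up to 4 other pathway genes per list that passed. Partner subunits and other genes were named after their values were seen.

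Alternatives were limma 3.58.1 on log2(FPKM + 1) or log2(FPKM + 0.1) for genes at 0.5 FPKM or more in 4 libraries, no expression filter, 1 CPM or more in 4 libraries, scaling by library size alone, DESeq2 1.42.0, robust empirical Bayes, a replicate block and each library left out. Removal of a GC or length trend and leaving out deficient 1 with wild type 1 were added after seeing the data. The edgeR script was tested on simulated data. Motifs were searched in RefSeq promoters.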

Additional observations from a re-analysis of the deposited data

Results flagged for a closer look

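In 6 groups of 4 libraries the highest or lowest library stood apart from the other 3 by more than the critical value of Dixon's test. Among 136 groups compared, chance flags about 1 in 20. Taf10 was at 32.7 CPM in wild type 1 and at 12.0 to 13.8 CPM in the other wild-type libraries. Gtf2i was at 11.7 CPM in deficient 1 against 14.8 to 15.3 CPM. Polr2k was at 7.34 CPM in wild type 1 against 3.03 to 3.73 CPM, and Gtf2f2 at 13.5 CPM in wild type 2 against 10.2 to 10.8 CPM. Rpap3 was flagged in both groups, at 22.1 CPM in deficient 1 against 11.9 to 12.6 CPM and at 11.2 CPM in wild type 2 against 7.43 to 7.85 CPM. Without wild type 1 the log2 fold change of Taf10 was 1.74, and without deficient 1 that of Rpap3 was 0.52 (edgeR adjusted p = 0.0978).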

How the results depend on the processing

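Across the 19 alternatives the median log2 fold change of the members stayed above that of all genes, by 0.16 to 0.25. It was 0.34 in limma on log2(FPKM + 0.1) and 0.36 with scaling by library size alone. With each library left out in turn, 6 to 13 members were higher and 0 to 4 lower, beside 454 to 1079 higher and 528 to 1309 lower of all genes. In the same fits the counts were 1 to 3 higher and 0 to 1 lower for Mediator, 1 to 3 and 0 to 2 for TFIID, 0 to 1 higher for TFIIH, 0 to 1 and 0 to 1 for polymerase subunits, 1 to 3 and 0 to 1 for the other factors, and 1 to 8 and 1 to 3 for the pathway genes with other names.

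Limma on log2(FPKM + 1) and on log2(FPKM + 0.1) called 23 members higher, with 6 higher and 0 lower in Mediator, 3 higher in TFIIH, 4 in the polymerases, 1 among polymerase I and III factors and 1 among other factors. These 2 fits called 1602 and 1594 of all genes higher, and 11 of the other pathway genes higher and 1 lower. Scaling by library size alone gave 24 members higher and 2 lower, with 6 higher and 0 lower in Mediator, 3 higher in TFIIH, 1 higher among polymerase I and III factors and 0 lower polymerase subunits, beside 1731 genes higher in all and 11 higher and 1 lower of the other pathway genes. DESeq2 called 1 TFIIH gene. With no expression filter, 1 polymerase subunit was higher and 1 other pathway gene lower. Removing the GC trend left 1 polymerase subunit higher, and removing the length trend gave 1 TFIIH gene. Without deficient 1 and wild type 1 together, 8 members were higher and 1 lower, with 0 lower in Mediator, TFIID and the polymerases, 1 higher polymerase subunit and 1 higher among other factors, beside 641 genes higher in all and 0 higher and 1 lower of the other pathway genes. For these counts the cause was not tested.

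Libraries with the same number correlated at -0.114 to 0.132, and those with different numbers at -0.317 to 0.33. With 4 libraries per group, these values cannot decide whether the numbers pair the samples. With the replicate block 10 members were higher and 4 lower, 0 polymerase subunits were higher, and of the other pathway genes 3 were higher and 1 lower. Depth limits Taf6l, Taf9b, Med18 and Gtf3a most, which lay near the filter on low counts.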

Other observations

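Taken over all tested members, the median of each deficient library lay above that of each wild-type library. The median log2 ratio of the 105 tested members to each gene's own mean over the 8 libraries was 0.14, 0.05, 0.13 and 0.13 in deficient libraries 1 to 4 and -0.06, -0.04, -0.16 and -0.04 in wild-type libraries 1 to 4, where the median of all genes ran from -0.02 to 0.02. Since each mean is taken over the same 8 libraries, the values of the deficient and wild-type libraries are not separate results. Deficient 2 and wild type 3 were at the ends of their groups. Single families held exceptions, such as TFIID at -0.03 in deficient 3 and 0.04 in wild type 1. TFIIA, TFIIB, TFIIE and TFIIF together were at -0.1 in deficient 3. The members had a median gene length of 3936 bp and a median GC content of 49.5%, against 4488 bp and 49.6% for all genes tested. With the GC trend removed the member median was 0.26, and with the length trend removed it was 0.22.

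The 3 transcripts listed at 0 reads, Taf7l, Taf7l2 and Gtf2a1l, belong to paralogues known mainly from germ cells, while Taf4b and Tbpl1, also best known from germ cells, were read in every library.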
